A study of Mus musculus with 14 samples.

Results

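The clustered replication-dependent histone genes were taken as every row of the count table whose symbol starts with Hist1h, Hist2h, Hist3h or Hist4h. This rule, which uses no measured value, gave 68 genes of the 24064 in the table. They were 6 H1, 18 H2A, 19 H2B, 12 H3 and 13 H4 genes, with the processed pseudogene Hist3h2bb-ps counted as H2B. Of these, 54 lie in the Hist1 cluster at chr13:21715763-23934851 (GRCm38, the mm10 build), 10 in Hist2 on chromosome 3, 3 in Hist3 on chromosome 11 and 1, Hist4h4, on chromosome 6. Counts were found for 19 of the 68, beside 15432 of the 24064 genes in the table. Of the 1892 counts of the members, 1 gene, Hist1h2bc, held 1859 (98.3%).

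Replication-dependent histone genes supply the core and linker histones that package newly copied DNA. Their mRNAs differ from other mRNAs in that they usually end in a short stem-loop and not in a poly(A) tail. The stem-loop is bound by Slbp, and the U7 small nuclear ribonucleoprotein directs the cut downstream of it. Growing oocytes store such mRNAs for use after fertilization, while replacement histones such as H3.3 come from ordinary polyadenylated genes. Here the cDNA was primed on poly(A), so that a transcript with no tail was not a target of the priming.

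Single oocytes of 3 genotypes of Kdm1a (also Lsd1), which encodes a histone lysine demethylase, were compared. The paper describes the oocytes of its transcriptome comparison as ovulated. The control group held 4 wt/wt oocytes of strain C57BL/6J (wt1, wt3, wt4, wt5) and 1 f/f oocyte of mixed B6;129 background with floxed Kdm1a and no Cre (C3). The mutant group, Lsd1 mko/mko in the labels, held 5 oocytes of mixed B6;129 background (D1, D2, D3, D4, D7), in which Cre under the oocyte-specific Zp3 promoter removes exon 1 of floxed Kdm1a. Strain, genotype and the style of the library names (Oo_ and a number against OoC or OoD) changed together between the wt/wt oocytes and all others. These cannot be told apart, and what the names stand for was not stated. The donor females, their age and how many oocytes came from each were not given for these libraries, so p-values measure the spread between oocytes that may share a female. The names C3, D3, D4 and D7 each had 2 libraries. In each pair 1 name ends in DNA, a suffix that no source used here explains. The labels number these libraries as separate oocytes. They were taken here as libraries of 1 oocyte and summed, and the n of 5 per group and the single f/f oocyte rest on that.

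The oocytes held 1375187 to 6928548 counts each. Kdm1a had 27 to 669 counts in each control and 0 to 10 in each mutant oocyte (log2 fold change -5.02, SE 0.86, edgeR adjusted p = 0.0011, -4.05 without C3 and -5.97 without D7). Counts were not resolved by exon, so that exon 1 itself was not checked. Of 15 oocyte markers, 14 or 15 had counts in every oocyte. Their summed level was 25381 to 41480 CPM (counts per 1000000 counts, scaled by the TMM factors of edgeR unless the total is named) in wt/wt oocytes, 79246 in C3 and 65272 to 139257 in mutant oocytes, so that wt/wt lay below all others. Of 15 cumulus and granulosa cell markers, 3 to 6 had counts, and Amh, Inha, Foxl2 and Fshr were at 0 throughout. The summed level of these 15 was 20.6 to 79.0 CPM in control and 83.5 to 157 CPM in mutant oocytes, without overlap, and Cyp19a1 gave the largest part of it in every oocyte but wt5. Other markers of that list went the other way, Nr5a2 with 8.59 to 11.6 CPM in wt/wt, 1.55 in C3 and 0.913 to 6.48 in mutant oocytes and Has2 with 0.897 to 6.04, 0 and 0 to 0.609. The part of these markers in the results was not tested.

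The 3′ ends of the members were read from the GENCODE transcripts, because the priming was aimed at a poly(A) tail at that end. Where priming took place was not tested. All 68 were found there by symbol, and 50 had at least 50 bases annotated after the stop codon. A stem-loop motif was searched on the sense strand, made of GG, any 2 bases, CTTNTNAG, any 2 bases and CC. It was present in 46 of the 50, starting 22 to 59 bases after the stop codon (median 32), and in 0.168% of the other protein-coding transcripts of that kind. In these 46 genes 8 forms occurred, and in each the first and the last 6 bases were complementary. The motif itself sets GG against CC and CT against AG, so that only the 2 free bases of each arm could have failed to pair. The 3 commonest forms are shown with the paired arms in capitals and the loop in lower case, the first in 26 members, the next in 7 and the last in 6.
Form in 26 members: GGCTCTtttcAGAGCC
Form in 7 members: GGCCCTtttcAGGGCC
Form in 6 members: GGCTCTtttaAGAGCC

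The 30 bases around the stem-loop are given for the 3 H4 genes whose counts are described below, again with the arms in capitals. The windows lie at chr13:23760793-23760822 (minus strand), chr13:23531451-23531480 (plus strand) and chr13:22040959-22040988 (minus strand).
Hist1h4a: aaccaaaGGCCCTtctcAGGGCCgcccaca
Hist1h4h: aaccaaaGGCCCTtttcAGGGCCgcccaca
Hist1h4i: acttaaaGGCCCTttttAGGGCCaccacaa
In the annotated transcripts of 4 members the motif was absent after the stop codon: Hist1h2bc, Hist1h2bq, Hist1h2br and Hist2h2be, named here after their annotation was seen. The first 3 of these, like Hist1h2be and Hist1h2bp, have a spliced coding transcript, whereas 62 members have coding transcripts of 1 exon only. The pseudogene Hist3h2bb-ps has no coding transcript. Introns were not searched for the motif.

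Hist1h2bc, which encodes an H2B, differs from the 46 in its annotated 3′ end. It lies at chr13:23684199-23692908 on the plus strand and overlaps no other annotated gene. Its transcript of 1156 bases has 2 exons, at chr13:23684199-23684621 and chr13:23692176-23692908, separated by an intron of 7554 bases. Exon 1 holds the whole coding sequence and ends 9 bases after the stop codon, and the 733 bases of exon 2 are 3′ UTR. The genomic stretch in which the motif starts in the 46 thus lies in the intron here. It was not searched, so that a stem-loop in an unspliced transcript was not assessed. The junction is shown with the stop codon in capitals, 15 bases coming from each exon.
Stop codon and junction: aagTGAtcctgccaagaggagcagacctga
The letters of the canonical poly(A) signal, AATAAA, occur after the stop codon once, 441 bases before the annotated end, at chr13:23692450-23692479 on the plus strand, where they are in capitals.
Poly(A) signal letters: tgatgtatatatAATAAAtgtcatgtaaag
The annotated end itself carries no AATAAA in its last 50 bases. Which of these positions the reads came from cannot be read from a count per gene.

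Hist1h2bc was the single member with a substantial level. Its counts in the control oocytes were 22 in wt1, 77 in wt3, 72 in wt4, 652 in wt5 and 18 in C3. The mutant counts were 135 in D1, 37 in D2, 272 in D3, 449 in D4 and 125 in D7. As CPM these were 12.2, 33.2, 29.4, 292 and 4.00 in control and 74.0, 22.5, 96.9, 68.3 and 62.3 in mutant oocytes, in the same order. The highest and the lowest value of all 10 were both controls, and the range of the mutant oocytes lay inside that of the controls. In C3 the gene stood above 35.4% of the genes tested and in wt5 above 94.5%.

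The mean was 74.3 ± 123 CPM in control (SD, n = 5) and 64.8 ± 27.0 CPM in mutant oocytes (SD, n = 5). The log2 fold change of mutant over control was -0.19 (SE 0.79, edgeR adjusted p = 0.88), against a median of 0.17 over all 9198 genes tested. A gene was called where its adjusted p was below 0.05 and its log2 fold change was 1 or more in size, and 2384 genes (25.9%) were called, 14.7% higher and 11.2% lower in mutant oocytes. Hist1h2bc, the 1 member that passed the filter on low counts, was not called by edgeR, nor at an unadjusted p under 0.05, nor by limma, and DESeq2 gave it no p.

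This outcome rested on wt5. Without it the control mean was 19.7 ± 13.9 CPM (SD, n = 4), the log2 fold change became 1.76 and the gene was called (edgeR adjusted p = 0.034). An exact permutation test over the 10 oocytes, added after the data were seen and with wt5 included, gave a difference of 1.07 in mean log2 CPM, higher in mutant oocytes and thus opposite in sign to the fitted value (two-sided p = 0.34, 252 groupings). Against the f/f oocyte alone, which shares the mixed background of the mutants, the log2 fold change was 4.04. Every mutant oocyte lay above C3, but C3 is 1 oocyte, so the spread of f/f oocytes is not known. The share of all genes with every mutant oocyte above C3 was not computed. Against the wt/wt oocytes alone the log2 fold change was -0.55 (edgeR adjusted p = 0.57). The summed cumulus and granulosa cell markers were lowest in wt5, at 20.6 CPM, where Hist1h2bc was highest. A relation between these levels was not tested.

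**Figure D1:**
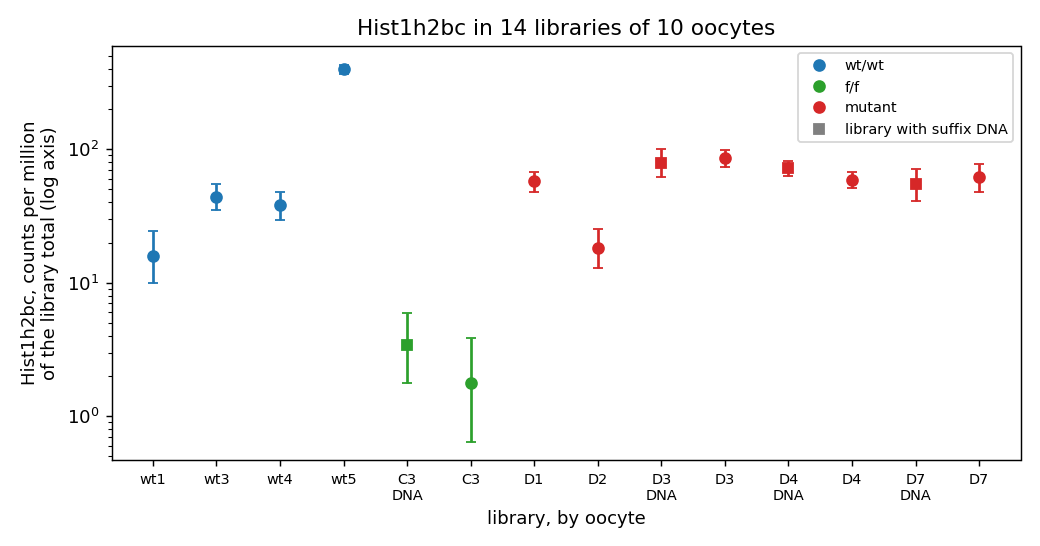
Hist1h2bc in CPM of the library total (log axis) in the 14 libraries, ordered by oocyte, with exact 95% binomial intervals as bars (counting error only). Blue points are wt/wt, green f/f and red mutant, and squares are libraries with the suffix DNA. The wt5 library, at 398, lies above all others, and both C3 libraries, at 3.41 and 1.76, lie below all others.

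The libraries that share an oocyte name allowed a check of the measurement, if each pair is 1 oocyte. For C3 the library with the suffix DNA, whose column in the count table has the letter and digit of its name swapped and was matched by inference, gave Hist1h2bc at 3.41 CPM of its total and the other 1.76. For D3 the values were 79.6 and 85.5, for D4 71.9 and 58.8 and for D7 54.8 and 61.8. None of the 4 pairs differed after adjustment (two-sided Fisher's exact test, lowest adjusted p = 0.13 for D4). Intervals and tests of this kind cover counting error only, as no molecular identifiers are stated.

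**Figure D2:**
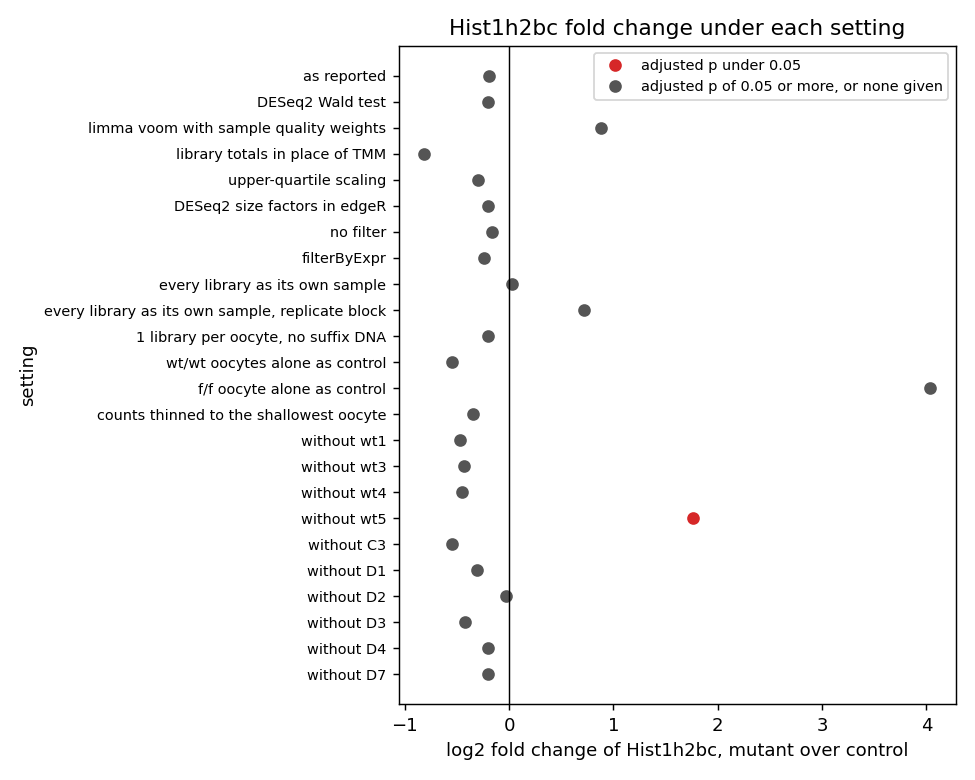
Log2 fold change of Hist1h2bc, mutant over control, as reported and under each other setting (rows). Red marks an adjusted p under 0.05, reached without wt5 (1.76) and under no other setting shown, and values range from -0.81 with library totals to 4.04 against the f/f oocyte alone.

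The other members were at the edge of detection. A set of 18 of these genes shared 33 counts. Of the 18, 10 had 1 count in all, and the highest total was 6. No gene exceeded 3 counts in 1 oocyte, and none of these genes reached the 35 counts of the least abundant gene tested, so none was tested in the fit reported. Their counts in the control oocytes were 1 in wt1, 2 in wt3, 1 in wt4, 0 in wt5 and 0 in C3. In the mutant oocytes they were 10 in D1, 2 in D2, 2 in D3, 11 in D4 and 4 in D7. Depth differed between the oocytes, and per count of the total D2 (0.992 CPM) and D3 (0.616 CPM) lay below wt3 (1.15 CPM), so that the groups overlapped.

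Together the 18 genes gave 0.295 CPM of the totals in control oocytes (4 counts, exact 95% Poisson interval 0.0803 to 0.755) and 1.74 in mutant oocytes (29 counts, 1.17 to 2.50). C3 held 51.0% of the control counts, and the wt/wt oocytes alone gave 0.602 (0.164 to 1.54), an interval that overlaps that of the mutants. The mutant value was 1.33 without D1, the oocyte with the highest rate (0.799 to 2.07). C3 held 0 counts, which allows up to 0.433 CPM of its total as 3 counts and 0.532 as the upper end of the exact interval. The intervals pool oocytes and leave out the spread between them, and no test was made of this sum.

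Among the core histones, the counts fell unevenly over the types. H4 genes, which encode the partner of H3 in the nucleosome core, had 18 of the 33 counts, 1 in control and 17 in mutant oocytes, from 6 of 13 genes. Hist1h4a had 2 counts in D1, 1 in D4 and 3 in D7. Hist1h4h had 3 in D1, 1 in D4 and 1 in D7, and both were at 0 in every control oocyte. Hist1h4i had 1 in wt1 and 1 in D1, and was the single member besides Hist1h2bc with counts in both groups. Hist1h4f had 1 in D1 and 1 in D4, Hist1h4d 1 in D3 and 1 in D4, and Hist1h4k 1 in D1.

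H3 genes had 6 counts from 4 of 12 genes. The 2 counts of Hist1h3f were both in D2, and Hist1h3g had 1 in D1 and 1 in D4. The H2B genes other than Hist1h2bc had 6 counts, 1 each from 6 genes, among them Hist1h2bn with 1 in D1. H1 genes, which encode linker histones, had 3 counts from 2 of 6 genes, all in D4. The 18 H2A genes had no count in any oocyte, which allows up to 0.0992 CPM as 3 counts of the 30243712 in all oocytes and 0.122 as the upper end of the exact interval. When no filter on low counts was used, the 19 members with a count were all tested and none was called by edgeR. Hist1h4a (log2 fold change 3.65, adjusted p = 0.085) and Hist1h4h (3.39, adjusted p = 0.11) had an unadjusted p under 0.05, and these fitted values depend on the prior count since the controls were at 0.

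**Figure D3:**
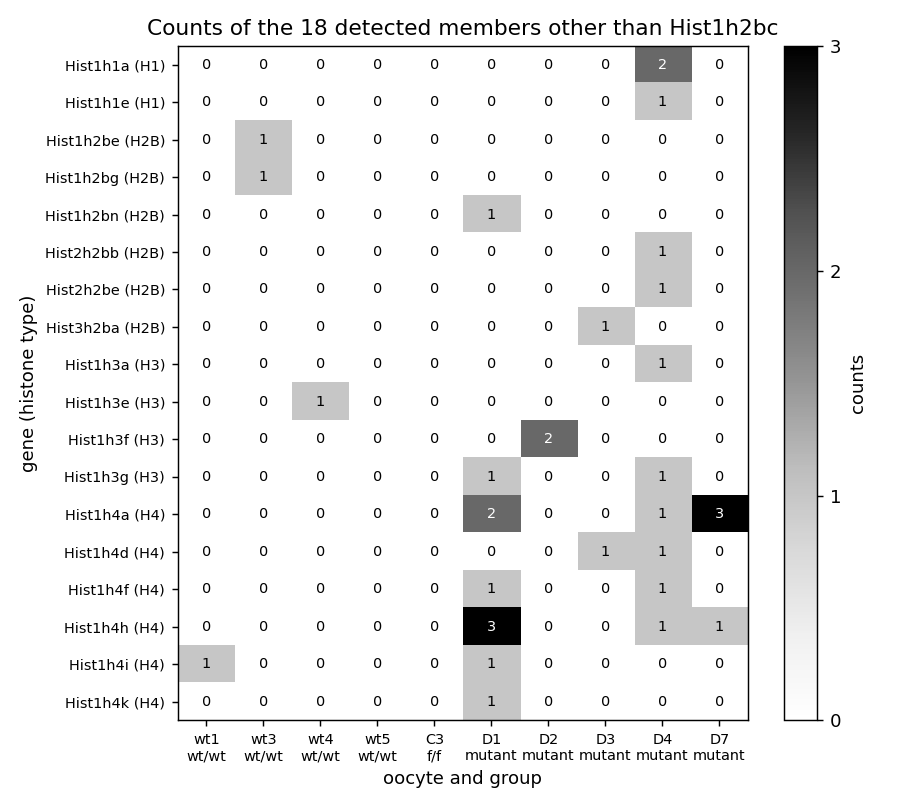
Counts of the 18 members other than Hist1h2bc that had any, as a grid of genes (rows, with histone type) against oocytes (columns, with group), darker for more counts. Of the 33 counts, 29 lie in the mutant columns and 21 of these in D1 and D4, while the wt5 and C3 columns hold none.

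Detection was set beside how far the members can be told apart by short reads, because the authors kept alignments with a unique best place. For each member, the 49-base windows of its transcripts (the read length) were searched in the transcripts of all other genes on both strands. The median member had 47.8% of its windows found nowhere else, 12 had under 10%, and 5 had none. The median was 59.3% for the 19 members with a count and 39.5% for the 49 without. Of the 49, 20 had at least 50% unique windows and still no count. By type the median was 26.9% for H2A, 38.0% for H3, 55.0% for H2B, 59.8% for H4 and 98.9% for H1, so that the H1 genes had the most unique windows and few counts. A window shared with an overlapping transcript of another gene also counted as not unique, and the genome outside transcripts was not searched.

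For Hist1h2bc the share was 12.8% in exon 1 and 97.8% in exon 2. Its coding sequence was 86.9% to 98.95% identical (median 97.9%) to those of 13 other H2B members of equal length. Reads from the coding exon could therefore belong to several genes and reads from the 3′ UTR mostly not. Among the H2B members, Hist2h2be had 100% unique windows and 1 count, and Hist2h2bb had no unique window and 1 count. The letters AATAAA stood in the last 50 bases of 14 members, of which 3 had counts, 6 for Hist1h4a and 1 each for Hist2h2be and Hist3h2ba (named after their counts were seen).

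**Figure D4:**
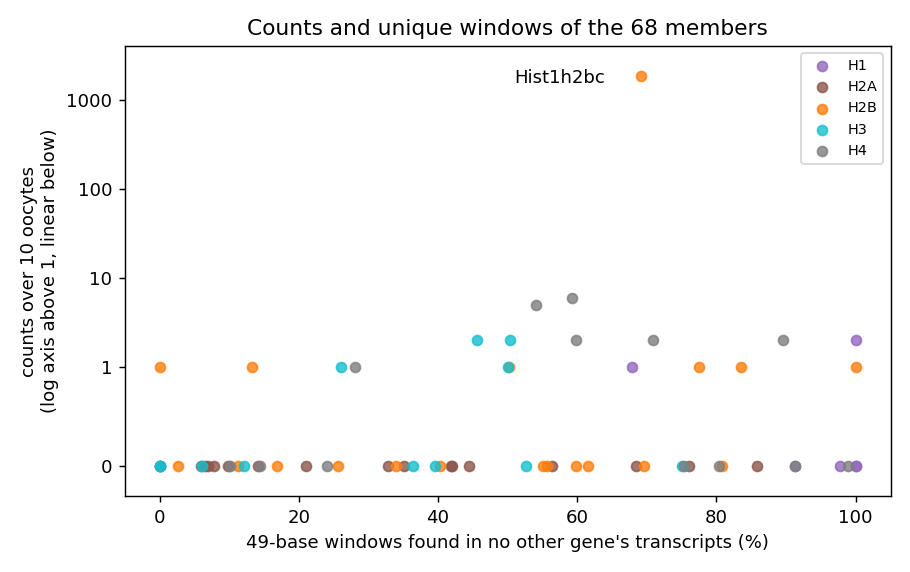
Counts over the 10 oocytes (log axis above 1, linear below) against the percentage of 49-base windows found in no other gene's transcripts, for the 68 members, coloured by histone type. Hist1h2bc, at 69.1% and 1859 counts, stands apart, and members with no count lie along the whole range from 0 to 100%.

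Of the polyadenylated replacement histones, H1foo, H3f3a and H3f3b were above Hist1h2bc in both groups. Levels were compared between genes as CPM per kilobase of transcript, with lengths of at most 3 kb, the stated reach of the cDNA. The median of Hist1h2bc was 25.5 CPM per kb in control and 59.1 in mutant oocytes, the 7th and the 4th highest of 13 genes, with ranges of 3.46 to 253 and 19.5 to 83.8. H1foo, the oocyte linker histone, had 9029 and 20831 CPM per kb. H3f3b, which encodes H3.3, had 778 and 893, and H3f3a, which encodes the same protein, had 316 and 1593. H1f0, a linker histone of resting cells, had 66.3 and 23.3. Cenpa, next below Hist1h2bc in the mutant oocytes, ranged from 32.2 to 82.1 there and overlapped it, while the lowest value of H3f3a in any oocyte was 278.

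The comparison list of polyadenylated variants changed in both directions. Of 12 genes 11 were tested and 6 called (54.5%, against 25.9% of all genes), 3 higher and 3 lower in mutant oocytes. The level of H3f3a rose from 1445 ± 910 to 4456 ± 614 CPM (SD, n = 5 each, log2 fold change 1.62, edgeR adjusted p = 0.010). C3 had 2932 CPM of H3f3a and the wt/wt oocytes 789 to 1708, and the log2 fold change against C3 alone was 0.63. H2afx, a variant of the DNA damage response, rose from 4.02 ± 3.11 to 15.5 ± 6.17 CPM (adjusted p = 0.024). For H2afx, C3 had 8.88 CPM, inside the mutant range of 7.45 to 24.4, and the log2 fold change against C3 alone was 0.83. H2afy2, which encodes macroH2A2, had 0 counts in the control oocytes and 90 in the mutants, at least 24.4-fold higher against a floor of 3 counts over the control group. This limit was 11.96-fold without C3 and 15.8-fold without D4, which held 56 of the 90 counts. Cenpa, the centromeric H3, fell from 229 ± 36.2 to 80.4 ± 32.2 CPM (adjusted p = 0.0061), and H1f0 from 170 ± 73.0 to 53.6 ± 20.9 CPM (adjusted p = 0.0064). H2afv, an H2A.Z, had 73 counts in control and 3 in mutant oocytes. The ratio of mutant to control was 0.0335 in CPM of the totals (exact 95% interval 0.00674 to 0.102). This interval pools the oocytes of a group and leaves out the spread between them.

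Of 9 tested genes listed for a part in the transcription of the clustered histone genes or its control, 1 was called (11.1%, against 25.9% of all genes). Npat, the coactivator of the clusters, was not called. Cdk2, the kinase that acts on Npat, was higher in mutant oocytes (edgeR adjusted p = 0.00063), with 3 counts in control and 236 in mutant oocytes. The ratio of mutant to control was 64.0 in CPM of the totals (exact 95% interval 21.7 to 313). This interval pools the oocytes of a group and leaves out the spread between them. The log2 fold change of Cdk2 moved from 5.62 to 6.29 without C3. The median log2 fold change of the 9 was -0.45.

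Of 17 tested genes that form the 3′ end of histone mRNAs, 5 were called (29.4%), 2 higher and 3 lower, with a median log2 fold change of -0.02. Slbp, the stem-loop binding protein, was abundant and not called, with 5965 ± 3439 CPM in control and 3907 ± 1415 CPM in mutant oocytes (SD, n = 5 each, log2 fold change -0.61, edgeR adjusted p = 0.29). Of the components that mark the U7 particle, Lsm10 rose from 1.98 ± 1.93 to 19.0 ± 14.4 CPM (adjusted p = 0.0046, log2 fold change 3.15, and 4.01 without C3) and Lsm11 fell from 54.8 ± 9.51 to 18.4 ± 6.73 CPM (adjusted p = 0.0061). Snrpd3, an Sm protein that U7 shares with spliceosomal particles, fell from 144 ± 102 to 32.7 ± 25.1 CPM (adjusted p = 0.014). Zfp473, a zinc finger protein that binds the U7 particle, fell from 34.8 ± 15.8 to 12.4 ± 5.29 CPM (adjusted p = 0.030). C3 had 22.2 CPM of Snrpd3 and 12.2 of Zfp473, inside the mutant ranges of 15.9 to 76.8 and 4.87 to 18.9. Against C3 alone the log2 fold changes were 0.59 and 0.0545.

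Fip1l1, which links the cleavage factors to poly(A) polymerase and stood in 2 lists, rose from 81.5 ± 31.3 to 893 ± 812 CPM (SD, n = 5 each, log2 fold change 3.45, and 2.79 without D1, edgeR adjusted p = 0.00092). Of 17 tested cleavage and polyadenylation genes 2 were called (11.8%, median log2 fold change 0.38). The other was Papola, the poly(A) polymerase, which fell from 346 ± 83.6 to 162 ± 54.4 CPM (adjusted p = 0.027).

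Genes of histone mRNA decay and translation gave 4 calls of 12 tested (33.3%), 1 higher and 3 lower, with a median log2 fold change of -0.47. Upf1, a helicase needed for histone mRNA decay, rose from 25.9 ± 12.7 to 76.8 ± 48.0 CPM (SD, n = 5 each, edgeR adjusted p = 0.042). Eri1, the exonuclease that trims the stem-loop end, fell from 24.0 ± 12.1 to 8.86 ± 4.57 CPM (adjusted p = 0.0497). Exosc10, a nuclease of the nuclear exosome, fell from 29.4 ± 9.30 to 9.51 ± 4.16 CPM (adjusted p = 0.014). Mif4gd, a partner of Slbp in translation, fell from 57.0 ± 10.4 to 25.8 ± 11.6 CPM (adjusted p = 0.049). C3 had 28.0 CPM of Upf1 and 13.8 of Eri1, inside the mutant ranges of 15.1 to 113 and 4.26 to 15.2. Against C3 alone the log2 fold changes of Upf1 and Eri1 were 1.48 and -0.59. For Exosc10 and Mif4gd, C3 had 18.6 and 63.9 CPM, above the mutant ranges of 5.02 to 15.5 and 7.15 to 38.9.

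Of 17 tested histone chaperones and assembly factors 4 were called (23.5%), 3 higher and 1 lower, with a median log2 fold change of 0.43. Npm2, the oocyte nucleoplasmin, rose from 18.6 ± 21.6 to 387 ± 383 CPM (SD, n = 5 each, edgeR adjusted p = 0.0021). Its log2 fold change was 4.39, and 5.44 without wt5 and 3.76 without D4. Nasp, which binds H3 and H4, rose from 128 ± 54.3 to 388 ± 73.8 CPM (adjusted p = 0.0045). Supt16, a subunit of FACT, rose from 17.8 ± 23.6 to 128 ± 44.2 CPM (adjusted p = 0.0054). C3 had 59.7 CPM and the wt/wt oocytes 3.45 to 8.97, and the log2 fold change of 2.82 became 4.15 without C3 and 1.12 (adjusted p = 0.41) against C3 alone. Hat1, which acetylates new H4, fell from 150 ± 49.9 to 69.9 ± 18.5 CPM (adjusted p = 0.032). For Hat1, C3 had 69.0 CPM, inside the mutant range of 44.9 to 94.8, and the log2 fold change against C3 alone was 0.0393.

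**Figure D5:**
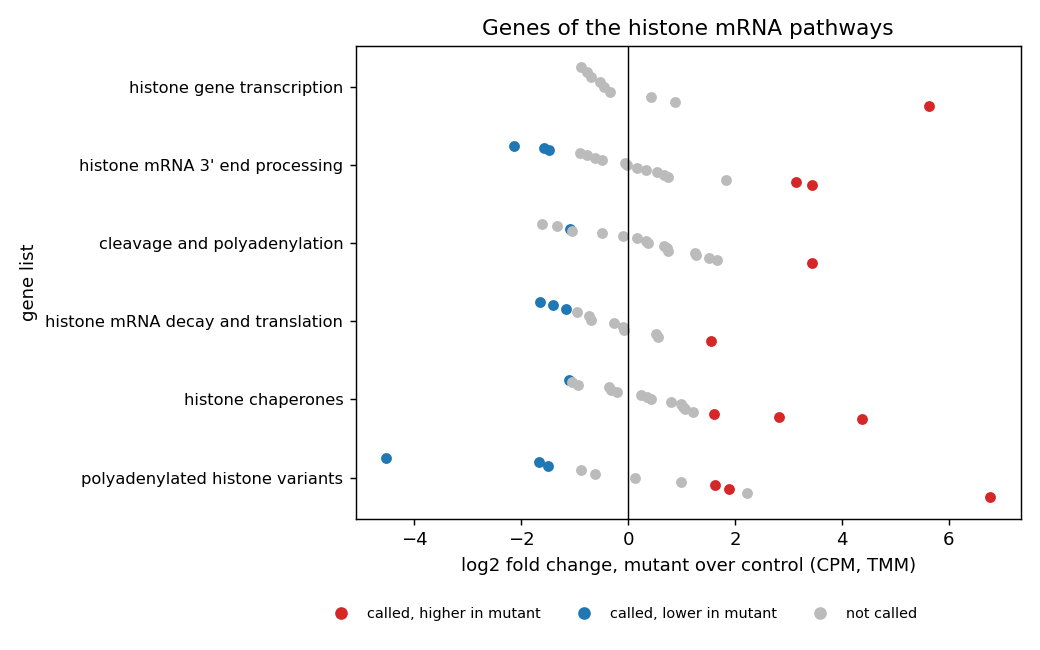
Log2 fold change, mutant over control, of each tested gene (points) in 6 gene lists (rows). Red points were called higher, blue called lower and grey not called. The point farthest to the right is H2afy2, whose fitted value depends on the prior count since the controls were at 0, and every list but histone gene transcription has called genes on both sides.

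Over all lists, counting each gene once, 21 of 77 tested genes were called (27.3%), close to the 25.9% of all genes, 10 higher and 11 lower. Of these 21, 14 stayed called in every fit that left out 1 oocyte. The other 7, Zfp473, Papola, Upf1, Mif4gd, Eri1, Hat1 and H2afx, lost their call in at least 4 of 10 such fits, with adjusted p of up to 0.12. No fit of this kind separates genotype from strain, as each kept wt/wt oocytes among the controls. Kdm1a, Fip1l1 and Npm2 overlap an annotated gene on their own strand. On the other strand Kdm1a, Cdk2, Fip1l1, Snrpd3, Zfp473, Upf1, Exosc10, Supt16, Hat1, H2afy2, H3f3a, Mif4gd, H2afx and H1f0 overlap one. The use of strand in counting was not stated, so that reads from both cannot be told apart there.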

How the data were processed

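Single mouse oocytes were lysed and their cDNA was primed on poly(A). The authors filtered 49-base single-end reads, aligned them to mm10 with TopHat 2.0.6, kept reads with a unique best place and used HTSeq on RefSeq genes. The deposited values are raw counts. The submitters' processing notes give HTSeq 0.5.3p9 and DESeq2 1.4.5 (R 3.2.0), and the paper's methods give other versions. Strand use was not stated.

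Libraries sharing an oocyte name were summed (14 libraries, 10 oocytes). Genes whose total count was in the upper 60% of those with any count were tested with edgeR 4.0.16 (TMM, quasi-likelihood test, Benjamini-Hochberg adjustment over all genes tested) in R 4.3.3. DESeq2 1.42.0, limma 3.58.1, other scalings and filters, thinned counts, other sample sets and leaving out each oocyte were tried. Log2 CPM used a prior count of 2. The scripts were tested on simulated data.

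The text names the called members, the 10 members of highest mean CPM and up to 3 called genes per list and direction. Gene positions come from GENCODE vM21, and its transcripts gave every sequence shown. The members and lists were chosen with earlier results of these data known.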

Additional observations from a re-analysis of the deposited data

Results flagged for a closer look

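In 8 of 76 sets of 4 or 5 oocytes the extreme oocyte stood farther from its neighbour than Dixon's 95% value allows, where chance gives about 1 in 20. For Hist1h2bc this was wt5, at 292 CPM against 33.2 for the next control, with a ratio of gap to range of 0.899 among the 5 controls and 0.925 among the 4 wt/wt oocytes. On the log2 scale, used for all other genes here, these ratios were 0.522 and 0.690, below the limits for 5 and 4 oocytes. The other 6 sets were log2 CPM of list genes. Among the wt/wt oocytes they were wt5 for Cdk2 (ratio 1, which any single count beside 3 oocytes at 0 gives) and for H3f3a (0.834), wt1 for Exosc10 (0.916) and wt3 for Supt16 (0.843). Among the mutants it was D4 for Mif4gd (0.761), and among the controls C3 for Hat1 (0.721).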

How the results depend on the processing

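No member was called under any setting tried except without wt5, where 1 was called (Hist1h2bc), so that leaving out 1 oocyte gave 0 to 1 called members and log2 fold changes of -0.55 to 1.76. The Hist1h2bc value was above 0 also with limma voom (0.88, adjusted p = 0.29), with every library as its own sample (0.032), in that fit with the number in the label as a replicate block (0.72, adjusted p = 0.61), against the f/f oocyte alone (4.04) and as a difference of mean log2 CPM (1.07). Its adjusted p ranged from 0.034 to 0.98 over the alternatives. The 21 called pathway genes became 34 with limma voom, 32 at an unadjusted p, 11 with the replicate block and 0 against the f/f oocyte alone, a fit in which 1 oocyte is assumed to vary like the others, and 14 to 31 when 1 oocyte was left out. The labels use these numbers for oocytes, counting C3, D3, D4 and D7 as 2 each, and tie them to no shared animal or day. Against the f/f oocyte alone Snrpd3 (0.59), Zfp473 (0.0545) and Hat1 (0.0393) changed sign. The cause was not tested. With library totals in place of TMM the median of all genes moved from 0.17 to -0.23, and 36.6% of called genes were higher in mutant oocytes in place of 56.8%. Of 19 members with a count, 11 remained after thinning to 1375187 counts per oocyte and 1 had at least 10 counts. The summed CPM of the members moved by less than 1 SD, or less than the counting interval for f/f, under the alternatives tried, with means of 92.3 in wt/wt (25.6 to 119 when 1 oocyte was left out), 4.00 in f/f and 67.0 in mutant oocytes (59.4 to 77.8). Depth limits what can be said of the members other than Hist1h2bc.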
